A study of Homo sapiens with 26 samples.

Results

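The comparison concerns 7 of the 26 untreated human B-cell cancer lines of the series, all with the class sensitive for doxorubicin in the labels, which were split by their vincristine class. The vincristine resistant group held 3 lines, SU-DHL-8 from diffuse large B-cell lymphoma (DLBCL) and MOLP-8 and NCI-H929 from multiple myeloma (MM). The vincristine sensitive group held 4 lines, FARAGE, OCI-Ly19 and SU-DHL-5 from DLBCL and MM1S from MM. The labels class 9 lines as doxorubicin sensitive, and AMO-1 (vincristine intermediate) and NU-DHL-1 (no vincristine class) stayed out of the comparison. Each established line gave 1 array (Affymetrix HG-U133 Plus 2.0) from RNA harvested before any drug was added, so the line is the replicate and no line has an error of its own. Levels are given as log2 values after RMA, which subtracts background, gives all arrays the same distribution of values and combines the probes of each probe-set into 1 level. The comparison asks which baseline expression differs between lines that resist the spindle poison and lines that do not, with doxorubicin class held the same and a term for the disease.

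Vincristine binds tubulin, the protein from which microtubules are built, and stops the mitotic spindle from forming, so that dividing cells arrest and many die through the BCL2-controlled mitochondrial pathway. Known routes of resistance in other cells include pumping of the drug out of the cell by ABC transporters such as the ABCB1 product P-glycoprotein, altered tubulin isotypes or microtubule-binding proteins, a bypassed spindle checkpoint and altered levels of BCL2 family proteins. Doxorubicin acts on DNA topoisomerase II and shares the ABCB1 pump with vincristine.

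The classes came from AUC0, the area below the dose response curve of growth rate as far as growth stayed above 0, where a larger area means more resistance. Its tertiles, taken within each disease, gave the classes. Vincristine AUC0, which fixed the groups, was 126 in SU-DHL-8 and 149 in both MOLP-8 and NCI-H929, against 56 in FARAGE, 54 in OCI-Ly19, 58 in SU-DHL-5 and 90 in MM1S. The bounds in the labels are widest for SU-DHL-8, from 81 to 129, and they overlap those of MM1S, from 80 to 100. At the edges, SU-DHL-8 had a doxorubicin AUC0 of 222 against 224 in NU-DUL-1, the first intermediate DLBCL line, and NCI-H929 had 291 against 297 in RPMI-8226, the first intermediate MM line.

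The groups were not alike in the readouts of the other drugs. Doxorubicin AUC0 was 222, 253 and 291 in SU-DHL-8, MOLP-8 and NCI-H929, against 180, 167, 202 and 227 in FARAGE, OCI-Ly19, SU-DHL-5 and MM1S. The resistant lines lay above the sensitive lines within each disease. The means were 255.3 ± 34.6 in resistant lines (SD, n = 3) and 194.0 ± 26.3 in sensitive lines (SD, n = 4), with a two-sided exact permutation p of 0.114, or 0.228 adjusted over the 2 drugs compared. The lines were permuted without regard to disease, so this test cannot separate disease from class, and groups of this size cannot give a p under 0.0571. Cyclophosphamide AUC0, measured with mafosfamide, averaged 280.7 ± 37.4 in resistant lines and 230.0 ± 62.5 in sensitive lines (exact permutation p = 0.229, with the same limit). MOLP-8 and NCI-H929 were grown in 20% serum and SU-DHL-8 in 10%, against 20% for SU-DHL-5 and 10% for FARAGE, OCI-Ly19 and MM1S. The parts of doxorubicin response, disease and serum in the results below were not tested beyond the fits that are described.

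**Figure D1:**
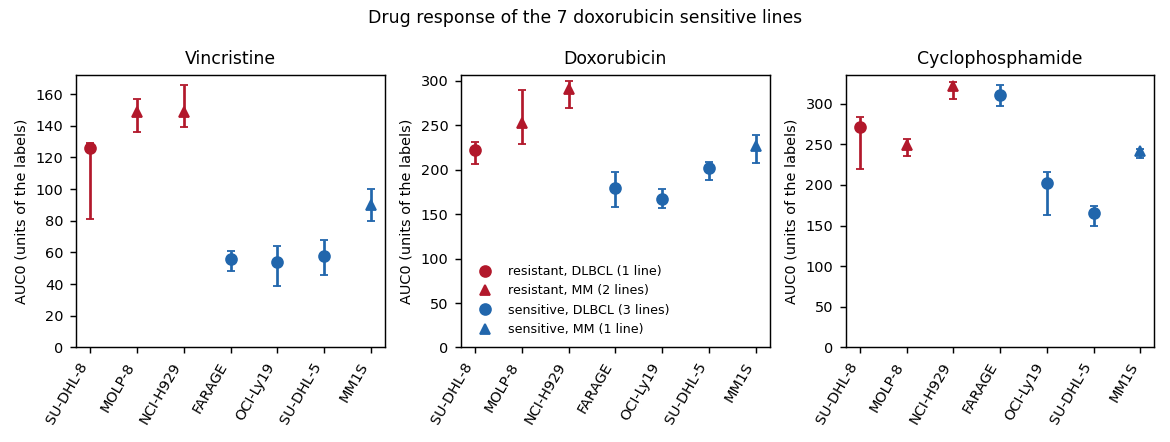
AUC0 of vincristine, doxorubicin and cyclophosphamide (y axis, units of the labels, from 0) in the 7 lines, resistant lines in red and sensitive lines in blue, with circles for DLBCL and triangles for MM and bars for the bounds in the labels. Vincristine AUC0 lies between 126 and 149 in the resistant lines and between 54 and 90 in the sensitive lines, and doxorubicin AUC0 is higher in the resistant lines within each disease.

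Marker genes matched the labelled diseases. PAX5, which keeps B cells committed to their lineage, stood at 11.22 in SU-DHL-8 and at 10.97 to 11.21 in the sensitive DLBCL lines, and at 4.51 and 4.82 in MOLP-8 and NCI-H929 and 4.40 in MM1S. SDC1, which encodes the plasma cell antigen CD138, was 11.09 and 10.35 in MOLP-8 and NCI-H929 and 11.49 in MM1S, and between 5.26 and 7.14 in the DLBCL lines. The array medians of the series lay between 5.65 and 5.72. Markers of other cell types had low means over each list in most lines. In resistant against sensitive lines the means were 4.65 to 5.13 against 4.89 to 6.11 for 9 NK and cytotoxic genes. They were 4.20 to 4.99 against 4.19 to 4.28 for 9 myeloid genes. For 9 stromal and endothelial genes they were 4.57 to 5.08 against 4.58 to 5.56. The 6.11 belonged to OCI-Ly19 and lay above the array medians, and the 5.56 belonged to SU-DHL-5. Among 10 T-cell genes the means were 5.07 to 5.92 and 4.90 to 5.97, and CD28 alone was high, at 9.42, 9.79 and 10.89 in the MM lines MOLP-8, NCI-H929 and MM1S. The myeloid gene LYZ, which encodes lysozyme, was 6.96 in SU-DHL-8 and no higher than 4.18 in the other 6 lines. In RNA from a whole culture, fewer cells that express a gene and less RNA per cell cannot be told apart.

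With a term for the disease, none of 54613 probe-sets differed between resistant and sensitive lines at an adjusted p under 0.05 in limma, which is 0% of those tested. The smallest adjusted p was 0.612, and 2387 probe-sets had an unadjusted p under 0.05, 1201 of them with higher and 1186 with lower values in the resistant lines. Over 19775 genes with 1 probe-set each, the unadjusted p was under 0.05 for 2.31% with a higher and 2.71% with a lower level in the resistant lines. Every gene named from here on is therefore given for its values, not as a call. Leaving out MM1S or SU-DHL-8 changes the comparison itself. With the disease term, the fit without MM1S compares SU-DHL-8 alone with the sensitive DLBCL lines. The fit without SU-DHL-8 compares MOLP-8 and NCI-H929 with MM1S alone. The number of called probe-sets was largest without SU-DHL-8, the only resistant DLBCL line. Without it 49 probe-sets passed (25 higher, 24 lower), without MM1S 1 passed, and without any of the other 5 lines none did.

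Since no probe-set passed, the genes of the smallest p in each direction describe the top of the ranking. Among those with lower levels in the resistant lines, the first was WDR11, which encodes a WD-repeat protein of vesicle traffic at the Golgi. Its values were 7.54, 7.81 and 7.70 in SU-DHL-8, MOLP-8 and NCI-H929, against 8.95, 8.90, 8.78 and 9.07 in FARAGE, OCI-Ly19, SU-DHL-5 and MM1S. The groups did not overlap, and the difference with the disease term was −1.32 (standard error 0.12, limma adjusted p = 0.612). SAR1A, a small GTPase that builds the COPII coat of vesicles leaving the endoplasmic reticulum, showed the same kind of gap. It was 6.55, 6.32 and 6.66 in SU-DHL-8, MOLP-8 and NCI-H929, against 8.59, 8.24, 8.24 and 8.44 in FARAGE, OCI-Ly19, SU-DHL-5 and MM1S, a difference of −1.88 (standard error 0.17, limma adjusted p = 0.612).

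RDH13, a retinol dehydrogenase of mitochondria, had values of 6.76, 7.54 and 7.66 in SU-DHL-8, MOLP-8 and NCI-H929, against 8.18, 8.05, 8.31 and 8.98 in FARAGE, OCI-Ly19, SU-DHL-5 and MM1S. BLNK encodes the adaptor that links the B-cell receptor to its downstream kinases and phospholipase. Its level was 8.51 in SU-DHL-8, 5.55 in MOLP-8 and 4.14 in NCI-H929, against 11.23 in FARAGE, 10.95 in OCI-Ly19, 11.29 in SU-DHL-5 and 9.26 in MM1S. The groups did not overlap, NCI-H929 was the lowest line, and the difference was −3.47 (standard error 0.53, limma adjusted p = 0.996). PALD1, which encodes paladin, ranged from 6.19 to 7.49 in resistant lines and from 8.60 to 9.43 in sensitive lines.

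NFE2L3, a transcription factor of the NRF family, differed by −3.51 and CSTB, an inhibitor of cathepsins, by −2.96. For both the whole groups overlapped, with levels in MM lines above those in DLBCL lines of the same class, and the order held within each disease. NFE2L3 was 3.49 in SU-DHL-8 against 7.71, 7.74 and 7.16 in FARAGE, OCI-Ly19 and SU-DHL-5, and 7.22 and 6.10 in MOLP-8 and NCI-H929 against 9.57 in MM1S. HS6ST1, which adds sulphate to heparan sulphate, TTC14 and ORMDL1, a regulator of sphingolipid synthesis, completed the lower genes with differences of −1.82, −1.09 and −0.99. The probe-sets of ORMDL1 disagreed, since 2 of 3 had positive differences, up to 0.39, and 1 was separated with higher levels. For TTC14, 1 of 3 probe-sets differed by 0.05.

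In the other direction the smallest p belonged to ARMCX5, an X-linked armadillo-repeat gene. Its values were 6.57, 7.22 and 8.22 in SU-DHL-8, MOLP-8 and NCI-H929, against 3.49, 3.69, 3.24 and 3.99 in FARAGE, OCI-Ly19, SU-DHL-5 and MM1S. The sensitive lines were all close to the lowest values of the array, and the difference was 3.39 (standard error 0.32, limma adjusted p = 0.612). The gene is one of the vincristine classifier genes of the study, which were selected on these same lines, so the gap is not independent evidence.

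PAQR6, a membrane progestin receptor, was 7.83, 8.51 and 8.46 in SU-DHL-8, MOLP-8 and NCI-H929, against 6.70, 6.68, 6.65 and 6.84 in FARAGE, OCI-Ly19, SU-DHL-5 and MM1S. The 4 sensitive lines lay close together. SLC17A9, the vesicular transporter of ATP, was 8.39, 7.82 and 7.62 in the resistant lines in the same order, against 7.05, 7.02, 6.55 and 6.00 in the sensitive lines. VAMP5, a vesicle SNARE protein, ranged from 7.46 to 7.84 in resistant lines and from 5.84 to 6.43 in sensitive lines. RGS5, an inhibitor of G-protein signalling, ranged from 6.17 to 7.24 against 4.83 to 5.32, and the histone gene H2AC25 from 8.28 to 9.30 against 6.73 to 7.43. CYRIA, which binds the Rac GTPase, ranged from 5.73 to 6.18 against 3.62 to 4.69. The zinc finger gene ZNF248 differed by 0.93. Of these 10 genes only C16orf54 had overlapping groups, at 5.25, 10.19 and 10.39 in SU-DHL-8, MOLP-8 and NCI-H929 against 3.42 to 4.15 in the sensitive DLBCL lines and 7.98 in MM1S. The second probe-sets of VAMP5, H2AC25 and ZNF248 differed by only 0.33, 0.06 and 0.2 and were not separated.

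**Figure D2:**
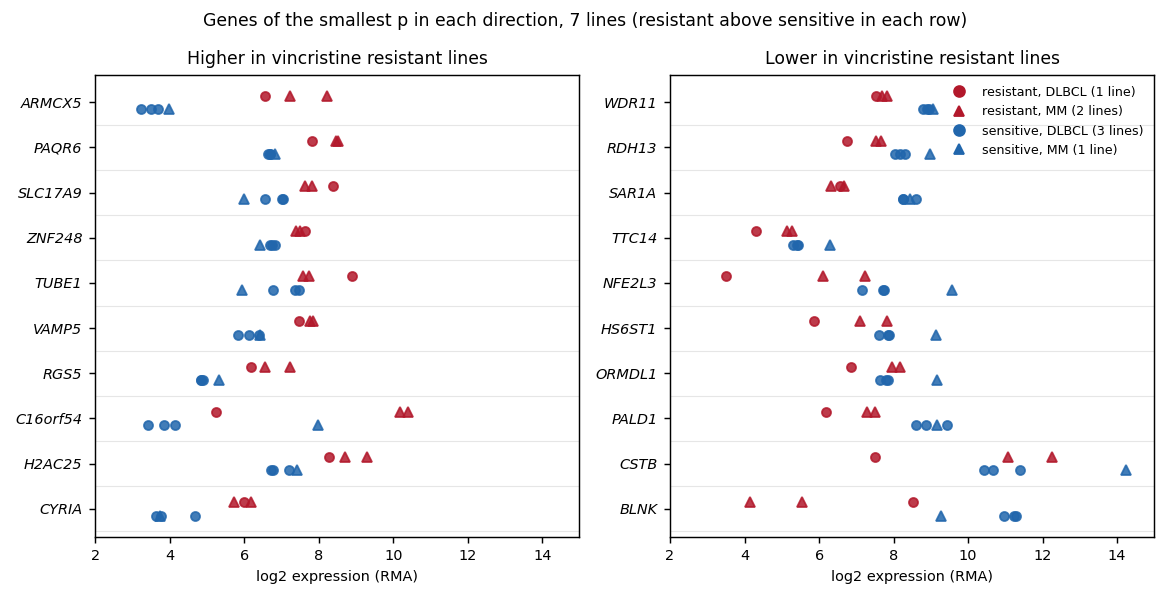
Log2 expression (x axis, RMA) in each of the 7 lines for the 10 genes of the smallest p with higher (left) and lower (right) levels in the vincristine resistant lines, red for resistant and blue for sensitive, circles for DLBCL and triangles for MM. WDR11 lies between 7.54 and 7.81 in the resistant lines and between 8.78 and 9.07 in the sensitive lines, while NFE2L3 and CSTB separate the classes only within a disease.

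TUBE1 was the only tubulin gene among the 20 genes of the smallest p. It encodes epsilon-tubulin, which is needed to build centrioles and is not part of the microtubule wall that vincristine binds. TUBE1 was 8.90, 7.58 and 7.74 in SU-DHL-8, MOLP-8 and NCI-H929, against 7.37, 7.48, 6.78 and 5.93 in FARAGE, OCI-Ly19, SU-DHL-5 and MM1S. The difference was 1.71 (standard error 0.22, limma adjusted p = 0.996), of similar size in DLBCL (1.69) and in MM (1.73). A second probe-set of the gene lay near the floor of the array, from 2.71 to 3.06, with a difference of 0.15.

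TUBE1 starts head to head with FAM229B on chromosome 6, and this neighbour, looked up after the values of TUBE1 were seen, had higher values in the resistant lines too. FAM229B was 8.46, 7.28 and 7.95 in SU-DHL-8, MOLP-8 and NCI-H929, against 6.34, 6.60, 6.63 and 7.16 in FARAGE, OCI-Ly19, SU-DHL-5 and MM1S, a difference of 1.24. The stretch between the annotated starts is shown because both genes are read away from it. It spans chr6:112087482-112087591 in GRCh38.p14 (RefSeq), written on the plus strand with the first base of TUBE1 (minus strand, left) and of FAM229B (plus strand, right) in capitals.
TUBE1 to FAM229B: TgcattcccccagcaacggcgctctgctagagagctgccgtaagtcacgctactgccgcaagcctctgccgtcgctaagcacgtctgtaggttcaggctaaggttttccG
The 110 bases hold 9 CG dinucleotides and no match on either strand to the 4 motifs searched. These were CCAAT (present in 34.6% of all 35116 windows of 250 bases before to 50 bases after a gene start), GGGCGG (45.0%), TATAAA (11.5%) and TGACGTCA (1.85%). The wider window of FAM229B holds GGGCGG and that of TUBE1 does not, and a match or its absence describes these letters only. The windows of TUBE1 and FAM229B hold 26 and 31 CG dinucleotides, against a median of 14 over all windows.

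A gene was counted as separated, a description met by more genes than an unadjusted p under 0.05, where the resistant lines lay on one side of the sensitive lines in DLBCL and again in MM. This held for 7.29% of all genes with higher and 8.83% with lower levels in the resistant lines. Among them the difference was largest for QPCT, the glutaminyl cyclase that modifies the ends of secreted peptides. QPCT was 3.62, 3.39 and 3.59 in SU-DHL-8, MOLP-8 and NCI-H929, against 9.78, 5.95, 6.73 and 12.22 in FARAGE, OCI-Ly19, SU-DHL-5 and MM1S. All resistant lines were at the floor, the sensitive lines spread over more than 6 log2 units, and the difference was −6.16 (standard error 1.43, limma adjusted p = 0.996).

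The next genes by size had varied roles. SERPINB9, the inhibitor of granzyme B that shields lymphocytes from their own granules, was 3.69, 3.76 and 4.30 in SU-DHL-8, MOLP-8 and NCI-H929, against 11.29, 8.74, 11.62 and 5.97 in FARAGE, OCI-Ly19, SU-DHL-5 and MM1S. PLEK, the protein kinase C substrate pleckstrin, ranged from 4.29 to 4.97 against 7.06 to 11.99. SORL1, a sorting receptor of endosomes, ranged from 3.99 to 5.21 against 5.77 to 12.15. SGK1, a kinase induced by glucocorticoids and serum, was 5.80, 6.66 and 7.95 against 12.65, 7.48, 11.69 and 10.27 in the same order of lines, so NCI-H929 lay above OCI-Ly19. AP1S3, an adaptor subunit of clathrin coats, ranged from 3.66 to 5.96 against 6.42 to 8.58, and LXN, a carboxypeptidase inhibitor, from 3.70 to 4.41 against 5.06 to 8.93. Groups of ENO2 (−3.87), TMEM255A (−3.85) and UNC13C (−4.38) overlapped across the diseases.

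The largest differences with higher levels in the resistant lines included surface proteins of B cells and plasma cells. CD38, the ectoenzyme targeted by antibodies in myeloma, was 11.07, 11.78 and 11.06 in SU-DHL-8, MOLP-8 and NCI-H929, against 9.19, 9.72, 6.08 and 7.87 in FARAGE, OCI-Ly19, SU-DHL-5 and MM1S. Its groups did not overlap, with a difference of 3.12 (standard error 1.01, limma adjusted p = 0.996). CD81, a tetraspanin of the cell surface, was 12.60, 11.62 and 10.34 in resistant lines against 11.88, 12.04, 11.89 and 5.28 in sensitive lines, and its difference of 3.03 was 0.66 without MM1S. RAB31, a GTPase of vesicle traffic, was 6.32, 9.92 and 10.34 against 4.63, 4.31, 4.28 and 5.98, and its adjusted p, 0.996 with all lines, was 0.0466 without SU-DHL-8. SNTB1 (2.87) and DSE (2.76) also kept the groups apart, whereas those of BACH2 (2.79), PFKP (2.75), MYBPC2 (2.58) and IGKC (3.50) overlapped across the diseases. PFKP differed by 0.77 without MM1S, MYBPC2 by 1.13 without MOLP-8 and BACH2 by 1.26 without SU-DHL-8, and of the 8 probe-sets of IGKC 4 had positive and 4 negative differences.

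Of 18 tubulin genes measured, 1 was separated with higher and 2 with lower levels in the resistant lines, 5.56% and 11.1%, close to the shares of all genes. The median difference was −0.18 against −0.02 over all genes. The beta-tubulin TUBB4B ranged from 11.61 in MOLP-8 to 12.16 in NCI-H929, against 12.39 in OCI-Ly19 to 12.72 in FARAGE (difference −0.54), and both its probe-sets separated the groups. TUBB3, the neuronal isotype often studied in resistance to microtubule drugs, was 10.67, 10.42 and 10.85 in resistant lines against 11.64, 10.99, 11.05 and 11.03 in sensitive lines (difference −0.48, standard error 0.24, limma adjusted p = 0.996). Both TUBB4B and TUBB3 rest on probe-sets of the x type, whose probes can bind several related transcripts, so isotypes may be mixed in them. TUBB, a widely expressed beta-tubulin, had negative differences on its 3 probe-sets, from −0.59 to −0.39, and 2 of them separated the classes within both diseases. TUBA4A was 8.39, 10.26 and 11.21 against 11.28, 8.67, 11.52 and 11.12 (−1.29). TUBA1A (0.60), TUBB6 (0.42), TUBB2A (−0.21) and TUBB2B (−0.17) overlapped within at least 1 disease.

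Among 41 microtubule-binding and tubulin-folding genes, 1 was separated with higher and 6 with lower levels in the resistant lines, 2.44% and 14.6% against 7.29% and 8.83% of all genes, with a median difference of −0.10. MAP4, which stabilises microtubules, was 7.91, 8.55 and 7.24 in SU-DHL-8, MOLP-8 and NCI-H929, against 8.68, 8.83, 8.91 and 8.63 in FARAGE, OCI-Ly19, SU-DHL-5 and MM1S. Its difference of −0.82 (standard error 0.35, limma adjusted p = 0.996) came from the probe-set of the smallest p, and 6 of its 7 probe-sets had negative differences. TTL, the ligase that returns tyrosine to alpha-tubulin, differed by −0.70, the related TTLL12 by −0.43 and the tubulin-folding cofactor TBCD by −0.38. Of the 4 probe-sets of TTL, 3 were separated with lower and 1 with higher levels. MAPRE1, which encodes the plus-end protein EB1, was the 1 separated with higher levels, at 10.92, 10.32 and 10.45 against 10.44, 10.09, 10.37 and 10.07, with a difference of 0.48 (standard error 0.16, limma adjusted p = 0.996) and 0.45 on its second probe-set. On probe-sets chosen for the smallest p, CAMSAP1 (0.70), CLIP1 (0.22), TTLL5 (0.17) and STMN4 (0.15) were also separated with higher levels. None of their values was above 5.22, and 5 of the 6 probe-sets of CLIP1 had negative differences, down to −0.68. On the same kind of probe-set, FIGN (−0.72), TPPP (−0.32), DCX (−0.21) and MAPRE3 (−0.18) were separated with lower levels. STMN1, which encodes the destabiliser stathmin, overlapped (−0.25).

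On the most variable probe-set of each gene, ABCB1 was the 1 of 9 efflux transporters that was separated, with higher levels in the resistant lines (11.1% against 7.29% of all genes). The values were 4.39, 4.86 and 3.94 in SU-DHL-8, MOLP-8 and NCI-H929, against 3.78, 3.73, 3.56 and 3.80 in FARAGE, OCI-Ly19, SU-DHL-5 and MM1S. All 7 lie in the lowest part of the scale, the second probe-set ranged from 3.12 to 3.39 with a difference of −0.01, and the difference of 0.65 had an adjusted p of 0.996 in limma. On their probe-sets of the smallest p, ABCC3 (−0.29) and ABCC5 (−0.40) were separated with lower levels, while their most variable probe-sets differed by 0.02 and 0.25 and were not. ABCC1 was 7.81, 7.61 and 7.18 against 8.12, 7.87, 7.37 and 7.78 in the same order (−0.17), ABCC2 differed by −0.04, and ABCG2 was at 7.99 in MM1S and no higher than 5.87 elsewhere. CYP3A5, which encodes a liver enzyme that breaks vincristine down, lay between 3.45 and 3.88 in all lines.

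The BCL2 family holds proteins that promote cell death and proteins that block it. Of 10 pro-apoptotic genes, 4 were separated with lower levels in the resistant lines, 40.0% against 8.83% of all genes, and none with higher levels. Their median difference was −0.42, with 8 differences below 0 and 2 above 0, and none was called. BID, which carries the signal of death receptors to mitochondria, was 8.69, 8.98 and 9.79 in SU-DHL-8, MOLP-8 and NCI-H929, against 10.26, 10.06, 9.82 and 9.93 in FARAGE, OCI-Ly19, SU-DHL-5 and MM1S. Its difference was −0.98 (standard error 0.30, limma adjusted p = 0.996), and its 3 probe-sets all separated the groups within the diseases. BAD, which neutralises BCL2 and BCL-XL when survival signals stop, was 7.48, 7.33 and 8.08 in resistant lines against 8.32, 8.02, 8.41 and 8.73 in sensitive lines (−0.89, standard error 0.24, limma adjusted p = 0.996). Of its 3 probe-sets, 2 were separated with lower levels and 1 differed by 0.14. BAK1, a pore former of the outer mitochondrial membrane, differed by −0.31 and BMF, a sensor of cytoskeletal stress, by −0.64. BIK was 5.20, 6.30 and 9.55 against 12.44, 10.84, 11.94 and 7.30, so SU-DHL-8 lay below all sensitive DLBCL lines, while MM1S lay between MOLP-8 and NCI-H929. BAX (−0.42) and BCL2L11, which encodes BIM (−0.10), were not separated. PMAIP1 and HRK were not separated either and leaned the other way. PMAIP1 had positive differences on its 2 probe-sets, 0.71 and 0.99, and HRK on 4 of 5, up to 0.66.

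None of 5 anti-apoptotic genes was separated. MCL1, the survival protein that is degraded during mitotic arrest, was 6.25, 7.57 and 8.22 in SU-DHL-8, MOLP-8 and NCI-H929, against 6.48, 5.95, 6.79 and 6.57 in FARAGE, OCI-Ly19, SU-DHL-5 and MM1S, with positive differences from 0.21 to 0.54 on 6 probe-sets. FBXW7, the ligase subunit that marks MCL1 for destruction, differed by 0.28. BCL2 differed by −0.53 (standard error 0.53) and BCL2A1 by −1.68 (standard error 1.76). BCL2A1 was at 12.52 in FARAGE and from 4.41 to 7.62 in the other lines. BCL2L1 differed by 0.11 (standard error 0.16), but 3 of its 4 probe-sets had negative differences, down to −0.50. BCL2L2 had positive differences on its 2 probe-sets, 0.11 and 1.54.

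**Figure D3:**
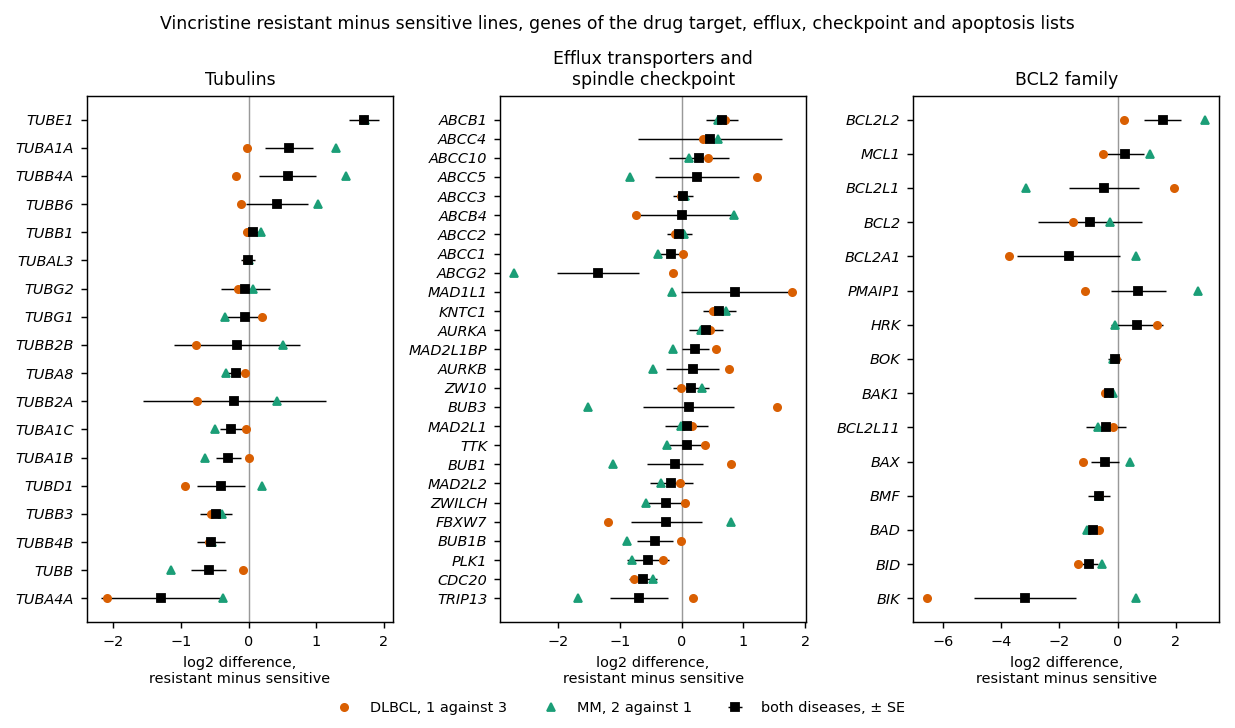
Log2 difference (x axis, resistant minus sensitive) of each tubulin gene (left), efflux transporter and spindle checkpoint gene (middle) and BCL2 family gene (right), each on the probe-set that varied most among the DLBCL lines. Black squares show the fit with the disease term ± its standard error, orange circles DLBCL (1 line against 3) and green triangles MM (2 against 1), and BID, BAD, BMF and BAK1 lie below 0 in both diseases.

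Of 17 spindle checkpoint genes, 2 were separated with higher levels (KNTC1 0.61 and AURKA 0.39), 11.8% against 7.29% of all genes. With lower levels 1 was separated (5.88% against 8.83%), the checkpoint target CDC20, at 10.20, 10.02 and 9.28 in SU-DHL-8, MOLP-8 and NCI-H929 against 11.04, 10.83, 11.06 and 10.12 in FARAGE, OCI-Ly19, SU-DHL-5 and MM1S. None of 14 mitotic kinesins was separated with higher and 3 (KIFC1, KIF20B and KIF23) with lower levels (21.4% against 8.83% of all genes), and the median was −0.34. Proliferation genes had a median difference of −0.30 over 24 genes, which was 0.19 in DLBCL and −0.77 in MM. MCM4, part of the replicative helicase, was 9.85, 7.97 and 8.45 in resistant lines against 10.39, 10.94, 10.23 and 9.98 in sensitive lines, and CDK1 differed by −1.01. The doxorubicin target TOP2A differed by 0.45 and none of 6 topoisomerases was separated.

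Of 17 unfolded protein response genes, 3 were separated with higher (17.6%) and 1 with lower levels (5.88%), against 7.29% and 8.83% of all genes, and the median was 0.13. ATF4, the transcription factor translated when the ribosome slows under stress, was 13.19, 12.85 and 12.90 in SU-DHL-8, MOLP-8 and NCI-H929, against 11.70, 12.69, 12.06 and 11.83 in FARAGE, OCI-Ly19, SU-DHL-5 and MM1S. The groups did not overlap, with a difference of 1.04 (standard error 0.27, limma adjusted p = 0.996), the same in DLBCL and MM. The other members with higher levels, ASNS, asparagine synthetase, and DDIT3, which encodes CHOP, differed by 1.17 and 0.96 and were separated within the diseases only. The member with lower levels was HERPUD1.

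Lists of B-cell state were uneven between the diseases. The 12 germinal centre genes had a median difference of −0.91, which was −1.52 in DLBCL and 0.08 in MM. STAP1, an adaptor of B-cell receptor signalling, was 8.33, 4.40 and 4.80 in SU-DHL-8, MOLP-8 and NCI-H929 against 10.47, 9.19, 9.49 and 7.59 in FARAGE, OCI-Ly19, SU-DHL-5 and MM1S (−2.14, limma adjusted p = 0.996). The 14 mature B-cell markers had 7 differences above and 7 below 0 and a median of −0.08. Of them 2 were separated with higher and none with lower levels, 14.3% and 0% against 7.29% and 8.83% of all genes. On its probe-set of the smallest p, MS4A1, which encodes CD20, was 9.31 in SU-DHL-8 against 13.01, 10.11 and 12.11 in the sensitive DLBCL lines, and CD22 was 5.67 against 7.45, 7.55 and 7.52, while both were low in MM. CD79B, a chain of the B-cell receptor, ran the other way in DLBCL, at 12.05 against 9.49, 10.32 and 11.29. MHC class II genes had a median of 0.78 in DLBCL and −2.87 in MM, where HLA-DRA was 4.87 and 5.34 in MOLP-8 and NCI-H929 and 12.10 in MM1S. Of 12 plasma cell genes, 3 were separated with higher levels (CD38, IRF4 and FKBP11) and 1 with lower levels (SLAMF7), 25.0% and 8.33% against 7.29% and 8.83% of all genes. The median of the list was −0.32, with 7 differences below 0.

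Interferon-stimulated genes had 3 of 40 separated with higher levels (7.5%) and 5 with lower levels (12.5%), near the 7.29% and 8.83% of all genes. IFIH1, the RNA sensor MDA5, was 6.98, 6.71 and 6.67 in SU-DHL-8, MOLP-8 and NCI-H929, against 8.99, 7.45, 8.56 and 9.41 in FARAGE, OCI-Ly19, SU-DHL-5 and MM1S (−2.0, standard error 0.50, limma adjusted p = 0.996). PARP9 (−1.77) was lower chiefly in SU-DHL-8, at 6.21 against 8.35 to 10.05 in the sensitive DLBCL lines, and MX2 (2.28) had higher values. In antigen presentation ERAP2, which trims peptides for MHC class I, differed by −1.78 and the peptide transporter TAP2 by −0.70. NF-kB targets had a median of −0.87 over 14 genes, with none separated upward and NFKB1 and CCL4 separated downward (14.3% against 8.83% of all genes). The p53 target FAS, a death receptor, was 6.86, 6.76 and 4.66 against 11.20, 7.69, 8.67 and 8.15, and of 19 p53 targets 4 were separated with lower (21.1% against 8.83% of all genes) and none with higher levels. The median of the p53 targets was −0.76 in DLBCL and 0.30 in MM. Of 13 ERK feedback genes 2 were separated with higher (DUSP6 and ETV5) and 2 with lower levels, 15.4% each, and of 25 cytoskeleton genes 2 and 2, 8.0% each. The actin-binding TPM2 was at 9.40 in SU-DHL-8 and between 4.49 and 5.07 in every other line.

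The list of 30 genes from the vincristine classifier of the study, which does not cover the whole classifier, had 2 separated with higher (6.67%) and 5 with lower levels (16.7%), against 7.29% and 8.83% of all genes. Among them were ARMCX5, MAN1A1, SGK1, UNC13C and HPGD. Because they were chosen with these lines in view, the counts are a description only. Their median difference was −2.07 in DLBCL and 0.03 in MM.

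**Figure D4:**
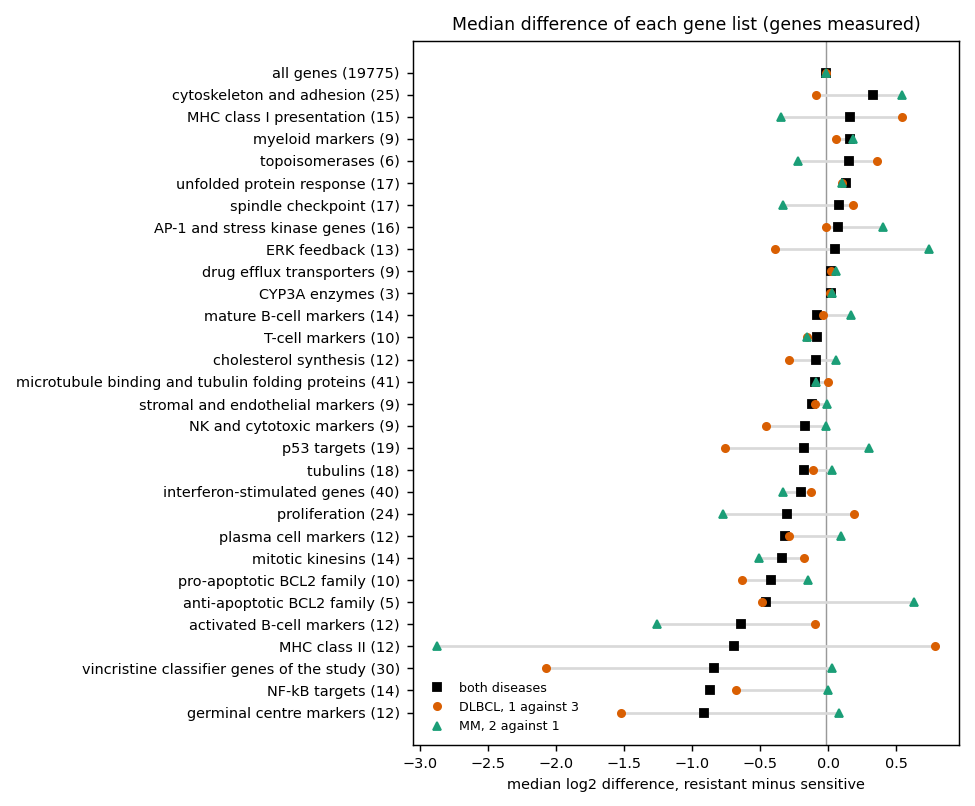
Median log2 difference (x axis, resistant minus sensitive) of the genes of each list, with the number of genes measured in brackets and all genes in the top row. Black squares show the fit with the disease term, orange circles DLBCL alone and green triangles MM alone, and the median of MHC class II genes is 0.78 in DLBCL and −2.87 in MM.

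The classes may differ in one disease and not in the other, so the difference between the diseases was fitted as an interaction over the same 7 lines. No probe-set passed (smallest adjusted p = 0.0707 in limma), and 3272 had an unadjusted p under 0.05. Among the named genes the smallest interaction p was that of TPM2 (0.000106, adjusted p = 0.109 in limma), which differed by 4.62 in DLBCL and 0.22 in MM, and the next that of CD81 (0.0013), which differed by 0.66 in DLBCL and 5.70 in MM. A single line stands for an arm in each disease, SU-DHL-8 in DLBCL and MM1S in MM, so a difference between diseases and a trait of that line cannot be told apart.

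The 49 probe-sets that passed without SU-DHL-8 come from a fit that compares MOLP-8 and NCI-H929 with MM1S alone, and the 3 sensitive DLBCL lines add to the estimate of spread. Of the 49, 8 had an unadjusted p under 0.05 with all 7 lines. MM1S stood farther from the mean of the 4 DLBCL lines than MOLP-8 and NCI-H929 did in 23 of the 24 with lower values, but in only 4 of the 25 with higher values. PCP4, a calmodulin regulator, was 4.33 and 4.10 in MOLP-8 and NCI-H929 against 12.57 in MM1S, and the stem cell factor SOX2 was 3.34 and 3.23 against 9.28. CD74, the class II invariant chain, was the exception, at 5.54 and 5.27 against 13.14, with all DLBCL lines above 12. Among those with higher values, MAGEA6, a cancer-testis antigen, was 12.49 and 12.95 in MOLP-8 and NCI-H929 against 4.76 in MM1S, MAGEA4 was 10.86 and 11.60 against 3.75, and SSX1 was 8.80 and 9.23 against 3.33. F2R, the thrombin receptor, was 10.77 and 10.21 against 4.07. In SSX1 and F2R the DLBCL lines lay from 3.16 to 3.39, so MOLP-8 and NCI-H929 were the lines that stood apart. FAF1, a partner of the FAS receptor, was 9.89 and 9.81 against 5.18, and the DLBCL lines had 9.84 to 10.23, so MM1S was the line that stood apart.

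Vincristine AUC0 as a number in place of the class gave no called probe-set either (smallest adjusted p = 0.79, limma). The slope per 50 units was −1.02 for WDR11 (standard error 0.09), −1.43 for SAR1A (0.15), −1.81 for PALD1 (0.19), 1.29 for TUBE1 (0.19) and 2.57 for ARMCX5 (0.31). AUC0 fixed the classes, and these genes were picked on the classes in the same lines. Their slopes and standard errors are therefore not independent evidence.

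Of the other lines, which are doxorubicin intermediate or resistant, 5 were vincristine resistant (DB, OCI-Ly7, RIVA, KMM-1 and LP-1) and 4 sensitive (MC-116, OPM-2, RPMI-8226 and U-266). They share no line with the comparison above. By disease they were 3 DLBCL and 2 MM resistant lines against 1 DLBCL and 3 MM sensitive lines. The 1 sensitive line counted as DLBCL, MC-116, is labelled undifferentiated lymphoma. Its vincristine AUC0 was 62, with wide bounds in the labels, from 32 to 121. None of the 54613 probe-sets passed (smallest adjusted p = 1 in limma, 1796 with an unadjusted p under 0.05). Of the 20 genes of smallest p, 11 had the same sign in these lines, and over all genes 50.3% did. ARMCX5 differed by 3.39 in the doxorubicin sensitive lines and by 2.68 in the others (standard error 1.22, limma adjusted p = 1). As a vincristine classifier gene, ARMCX5 was selected by the study on lines of both sets, so its like sign is not independent evidence. PALD1 differed by −2.30 and −0.89 and was separated in both sets of lines. WDR11 differed by −1.32 and 0.46, SAR1A by −1.88 and 0.14, TUBE1 by 1.71 and −0.52 and ATF4 by 1.04 and −0.46. ETV5, an ERK-induced transcription factor, differed by 1.5 and −2.08.

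A test of the difference between the 2 sets of lines called none of the probe-sets (smallest adjusted p = 1 in limma, 1910 with an unadjusted p under 0.05). The unadjusted p of that test was 0.000216 for WDR11, 0.000815 for ETV5 and 0.00234 for SAR1A, 0.11 for TUBE1 and 0.651 for ARMCX5. These genes were picked by their values in the doxorubicin sensitive lines, which enter this test. A small p for them is therefore not independent evidence of a difference between the sets. Of 19775 genes, 1442 were separated with higher and 1746 with lower levels in the doxorubicin sensitive lines, and 406 and 393 in the other lines. Genes separated in both sets in the same direction numbered 31 with higher and 38 with lower levels. A similar number, 35 and 36, were separated in opposite directions, so the overlap in the same direction does not stand out.

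**Figure D5:**
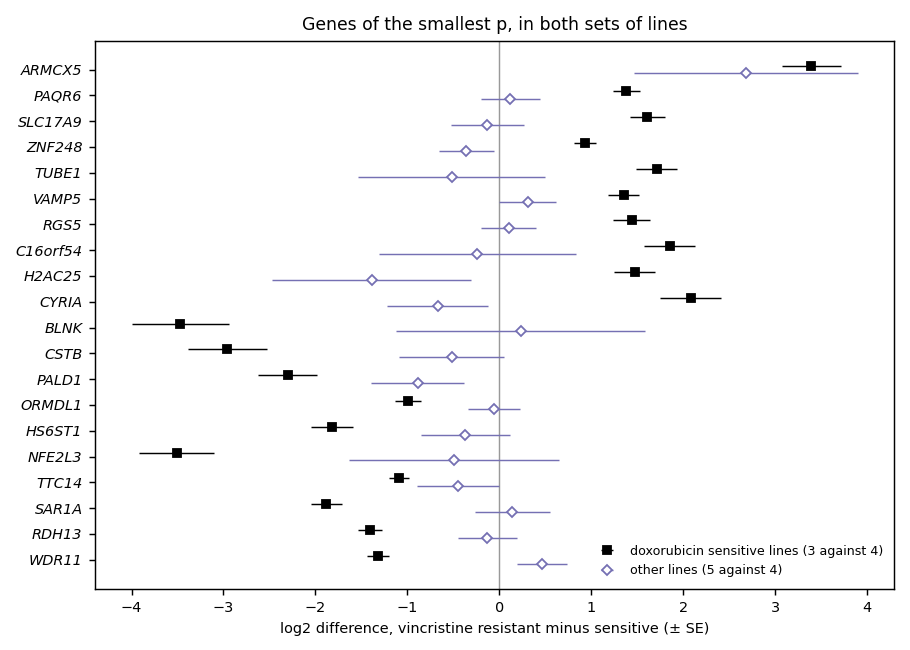
Log2 difference of vincristine resistant minus sensitive lines (x axis) for the 20 genes of the smallest p, black squares for the doxorubicin sensitive lines (3 against 4) and open diamonds for the other lines (5 against 4), with bars for the standard error. ARMCX5, a classifier gene that the study selected on lines of both sets, lies above 0 in both, at 3.39 and 2.68. WDR11 lies at −1.32 and 0.46.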

How the data were processed

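The deposited values are the authors' log2 expression values after RMA (affy and R 3.0.1 in the submitters' processing notes), 1 array for each of 26 lines. The scanner files were not used here. Classes and AUC0 came from the labels, where the doxorubicin class stands under a second cyclophosphamide tag. The members and gene lists were chosen with earlier results of these data known.

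After 62 control probe-sets were left out, limma 3.58.1 (R 4.3.3) was run on 54613 (disease and vincristine class, 7 lines, 4 residual degrees of freedom) with Benjamini-Hochberg adjustment. A total of 41091 probe-sets carry 1 gene symbol in the platform annotation, 1801 several and 11721 none. List counts use 1 probe-set for each of 19775 genes, the one that varied most among DLBCL lines by SD. Of 29 lists, 27 entries had no probe-set of that symbol alone and were not analysed here.

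Named genes were those of the smallest p (10 per direction), the largest differences among separated genes (10 per direction), fixed drug target and marker genes, and separated list members, each on its probe-set of the smallest p, which favours large gaps. Y-linked genes and XIST were left out. On simulated data with planted differences the fit recovered 4.48% of log2 differences of 1, 71.6% of 2 and 92.4% of 4, with 3 false calls. Sequences are RefSeq, GRCh38.p14. Permutation tests used Python 3.11.15 and scipy 1.17.1. Alternatives were no disease term, all 26 lines, 1 probe-set per gene, no dim probe-sets (mean log2 under 5), centred arrays, another prior, a doxorubicin AUC0 term, the study's centring and scaling, and each line left out.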

Additional observations from a re-analysis of the deposited data

Results flagged for a closer look

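In the sensitive group of 4 lines, 16 of 137 named genes had 1 line far from the other lines by Dixon's criterion, which chance meets for about 1 in 20 groups. In 13 of these the line was MM1S, the only MM line of that group. MM1S lay above the sensitive DLBCL lines for RGS5 (5.32), C16orf54 (7.98), TTC14 (6.3), HS6ST1 (9.15), ORMDL1 (9.16), FKBP11 (8.5) and CD28 (10.89). It lay below them for CD81 (5.28), BLNK (9.26), CD22 (5.28), SQLE (7.3), TUBA1A (8.88) and PAX5 (4.4). OCI-Ly19 stood apart for CYRIA (4.69) and TUBA4A (8.67), and FARAGE for TUBB3 (11.64).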

How the results depend on the processing

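Leaving out 1 line at a time gave 0 to 49 called probe-sets in the main comparison, with 49 without SU-DHL-8 and 1 without MM1S, and 0 to 2 in the other lines, with 2 without OPM-2 (LAMP3 and IGLL5). No other alternative called a probe-set. Among the 137 named genes the differences kept their sign except as follows. With the doxorubicin AUC0 as a term, differences changed sign for TPPP (0.04), MAPRE3 (0.0), KIF23 (0.21), AURKA (−0.36), FOSB (−0.02), NFKB1 (0.05), CD5 (−0.07), TUBB2B (2.31), TUBA1A (−0.07), ABCC1 (0.42), BCL2 (0.65), MCL1 (−0.38) and TOP2A (−0.44). Without the disease term they did for STMN4 (−0.02), AURKA (−0.0), CD79B (−0.12), SLAMF7 (1.11), NLRC5 (−0.13), SQLE (−0.05), CD28 (2.1), TUBB2B (0.49), TUBA1A (−0.45), ABCC2 (0.05), BCL2L11 (0.03), PAX5 (−2.55), SDC1 (1.4) and PRDM1 (0.29). With all 26 lines in the fit they did for TUBB2B (0.22) and ABCC2 (0.02), and with the study's centring and scaling for FBXW7 (−0.07). With 1 line left out, the sign also changed within the ranges of TUBB2A (−0.95 to 0.43), TUBB2B (−0.78 to 0.51), TUBB6 (−0.12 to 1.02), TUBA1A (−0.02 to 1.29), STMN1 (−0.79 to 0.23), ABCC1 (−0.39 to 0.02), ABCC2 (−0.17 to 0.07), CYP3A5 (−0.25 to 0.01), MCL1 (−0.16 to 1.33), BCL2A1 (−3.73 to 0.63), BAX (−0.97 to 0.21), FBXW7 (−0.72 to 1.4) and PRDM1 (−0.94 to 0.23). Medians changed sign for 11 of 29 gene lists without SU-DHL-8, and without the disease term they were −1.55 for mature B-cell, 1.74 for plasma cell and 0.76 for unfolded protein response genes. The causes were not tested. No paired analysis was possible because the labels give the lines no shared replicate numbers. A log2 difference of 1 was recovered in 4.48% of simulated cases, so most differences of that size would be missed with 7 lines.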

Other observations

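The genes of the smallest p with lower levels in the resistant lines were unevenly placed, with 4 of 10 on chromosome 10, which carries 3.93% of all genes (RefSeq, GRCh38.p14). Chromosome 10 also had the lowest median difference of 23 chromosomes, −0.15 over 527 genes above the dim limit. On its long arm the median was −0.17 over 411 genes, 292 of them below 0, and 68 genes (16.5%, against 8.83% of all genes) were separated with lower levels in the resistant lines. The median was −0.08 without MOLP-8 and −0.22 without NCI-H929. MOLP-8 had the lowest long-arm level of the 26 lines, at −0.38 relative to their mean, against 0.02 in SU-DHL-8 and 0.01 in NCI-H929 and 0.05 to 0.12 in the sensitive lines. On the short arm, with the same limit, the median was −0.05 over 116 genes, and 7 (6.03%) were separated with lower levels. The pattern was noticed in these data and its cause was not tested.

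TM9SF3, the 1 gene called without MM1S, has 5 probe-sets, and the one called was at 3.79 in SU-DHL-8 against 9.5 to 11.41 in the other 25 lines. Its other probe-sets in SU-DHL-8 stood at 8.47 and 4.16, below the lowest of the other lines at 9.15 and 4.45, and at 8.98 and 5.16, within their range.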
